A study of Arabidopsis thaliana with 6 samples.

Results

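The cyclins, cyclin-dependent kinases (CDKs) and direct cell cycle regulators of Arabidopsis thaliana were followed in germinated seeds before and after re-establishment of desiccation tolerance. The set was fixed by locus identifier and holds 45 of the 30509 genes of the array table. It comprises 10 D-type cyclins (CYCD), 7 A-type cyclins (CYCA), 8 B-type cyclins (CYCB), 4 B-type CDKs (CDKB), CDKA1, the CDK inhibitors KRP1 to KRP7, SIM and SMR1, the inhibitory kinase WEE1, the transcription factors E2FA, E2FB, E2FC and DEL1, and the retinoblastoma homologue RBR1. All 45 loci had a value on every array. The rule names loci and uses no measured value, although the set was drawn up with earlier results of these data known.

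The arrays compared 2 groups of 3 biological replicates each, every replicate being a pool of many whole germinated seeds of the wild-type accession Col-0. Seeds of both groups were stratified for 72 h at 4 °C, germinated at 22 °C in constant white light and collected at radicle protrusion (stage II). Desiccation-sensitive (DS) seeds were taken at once, whereas desiccation-tolerant (DT) seeds were first incubated for 3 d at 22 °C in the dark in a polyethylene glycol (PEG) solution of -2.5 MPa, which withdraws water without drying the seed in air. Biotin-labelled cRNA of each replicate was hybridised to 1 SNPtile array, and the deposited values, 1 per gene after quantile normalization by the authors, were taken as log2 signals from their range. Osmotic stress, darkness and 3 d of extra age came together in DT, so they cannot be told apart. RNA came from whole seeds, so fewer dividing cells and less RNA per dividing cell cannot be told apart either.

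CDKs are kinases that act only when bound to a cyclin, and the cyclin bound differs between the phases of the cycle. In plants D-type cyclins with CDKA1 phosphorylate RBR1 in G1 and thereby release E2F factors, which switch on genes for DNA synthesis. A-type cyclins follow in S phase and G2, and B-type cyclins with the plant-specific CDKB kinases carry cells into mitosis. KRP and SIM/SMR proteins bind cyclin-CDK complexes and hold them inactive. In the embryo most cells rest in G1 in the dry seed, the radicle emerges mainly through cell elongation, and division begins in the root meristem around germination.

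Genes used in G2 and mitosis commonly carry the mitosis-specific activator (MSA) element, a promoter motif with the core AACGG that is bound by MYB3R transcription factors. Promoter windows of 300 bases directly upstream of the annotated gene start were read from the RefSeq annotation of TAIR10.1 and searched on both strands. An extended MSA word was the core preceded by CC, CT, TC or TT, so each extended word contains the core. Windows of 3 B-type cyclin genes that fell in DT are shown because they hold the most extended MSA words among the CYCB and CDKB genes. AT3G11520 held 2 words as well, and the tie for the third window was settled by the size of the change. They are AT5G06150 (chr5:1861704-1862003, minus strand), AT1G20610 (chr1:7137829-7138128, minus strand) and AT4G35620 (chr4:16901296-16901595, plus strand), written 5′ to 3′ on the strand of the gene, with each extended MSA word in capitals in either orientation.
AT5G06150: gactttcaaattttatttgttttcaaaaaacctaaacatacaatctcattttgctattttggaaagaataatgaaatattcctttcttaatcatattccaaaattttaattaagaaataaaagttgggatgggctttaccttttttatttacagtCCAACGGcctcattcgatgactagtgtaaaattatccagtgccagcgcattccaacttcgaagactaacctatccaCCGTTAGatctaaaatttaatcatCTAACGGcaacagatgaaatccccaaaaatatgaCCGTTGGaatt
AT1G20610: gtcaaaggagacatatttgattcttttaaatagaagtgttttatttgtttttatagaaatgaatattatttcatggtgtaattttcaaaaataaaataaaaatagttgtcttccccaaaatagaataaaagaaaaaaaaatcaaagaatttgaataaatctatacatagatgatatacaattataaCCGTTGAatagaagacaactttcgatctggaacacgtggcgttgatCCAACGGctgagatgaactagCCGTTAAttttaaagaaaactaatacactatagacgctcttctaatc
AT4G35620: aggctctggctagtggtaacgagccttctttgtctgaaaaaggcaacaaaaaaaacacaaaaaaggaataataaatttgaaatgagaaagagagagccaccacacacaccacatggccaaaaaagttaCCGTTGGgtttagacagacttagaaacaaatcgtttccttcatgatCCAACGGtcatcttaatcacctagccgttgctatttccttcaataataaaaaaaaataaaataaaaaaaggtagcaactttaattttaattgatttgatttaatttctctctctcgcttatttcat
The window of AT5G06150 held 4 extended MSA words, at 145, 69, 45 and 11 bases before the gene start. That of AT1G20610 held 3, at 114, 68 and 47 bases, and that of AT4G35620 held 2, at 172 and 126 bases. An extended MSA word stood in 7 of the 8 CYCB windows (87.5%), in 1 of the 4 CDKB windows (25%) and in 2248 of 30077 windows of all genes on the array (7.47%). Of the CYCB windows 4 (50.0%) held at least 2 such words, against 0.751% of all windows. The single CYCB window with none, neither extended word nor core, belonged to AT2G26760. Among the other classes a word was found in 1 of 7 CYCA, 2 of 10 inhibitor, 0 of 10 CYCD and 0 of 6 CDKA1, E2F and RBR1 windows. The core AACGG was less selective, in 23.6% of all windows. It stood in 7 of 8 CYCB, 1 of 4 CDKB, 4 of 7 CYCA, 6 of 10 inhibitor, 1 of 10 CYCD and 2 of 6 CDKA1, E2F and RBR1 windows. Of the members that fell in DT 13 of 29 (44.8%) had the core, and of those not past the test 8 of 14 (57.1%). For the extended word the counts ran the other way, 9 of 29 (31.0%) and 2 of 14 (14.3%). A match is a run of letters only, and none was tested for binding.

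**Figure D1:**
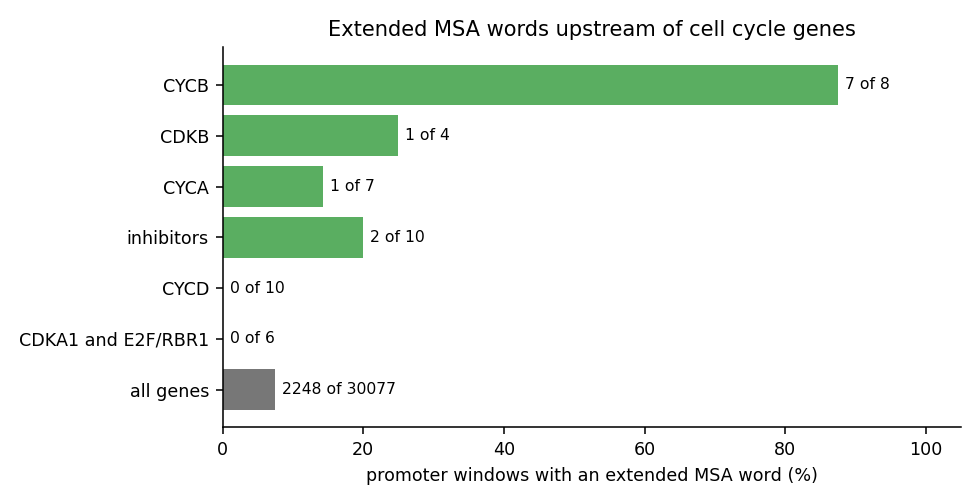
Percent of 300-base promoter windows that hold at least 1 extended MSA word, for each class of cell cycle gene (green) and for all genes with a window (grey), with the counts beside each bar. The CYCB bar reaches 87.5%, and the bar of all genes 7.47%.

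Cell cycle genes were mostly lower after PEG treatment. Of the 45 genes, 29 fell in DT (64.4%), 2 rose and 14 did not pass the test. The test was limma's moderated linear model over all 30509 genes with Benjamini-Hochberg adjustment, passed at an adjusted p of at most 0.05. Over all genes on the array 19.9% fell and 9.97% rose by the same test. The changes were small. The median log2 fold change (DT minus DS) of the 45 genes was -0.23, within a range of -0.94 to 0.67, and that of all genes was -0.02. No member met the filter of the study's methods, a change of at least 2-fold at an unadjusted p of at most 0.05, which 1.36% of all genes met downwards and 0.862% upwards. At that unadjusted p alone, limma gave 33 members lower and 2 higher. The share of all genes at that p was not counted, and the shares given here for other thresholds do not apply to it. The 3 DT arrays lay wholly below the 3 DS arrays for 35 members and wholly above them for 3, against 27.0% and 15.5% of all genes. The smallest p that an exact test of 3 against 3 arrays can reach is 0.1, so adjusted p-values of single genes below are those of limma's fit.

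The median over the 45 genes was 4.93, 4.91 and 5.01 on the log2 signal scale in the 3 DS replicates, and 4.66, 4.65 and 4.67 in the 3 DT replicates. Most members were dim. The background level was set at 4.96 on the log2 scale, the 95th percentile of the mean signals of 3629 genes annotated as pseudogenes, and 65.1% of all genes lay at or below it. The mean over the 6 arrays was above that level for 16 of the 45 members. In DS the group mean was above it for 21 members, and in DT for 12.

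**Figure D2:**
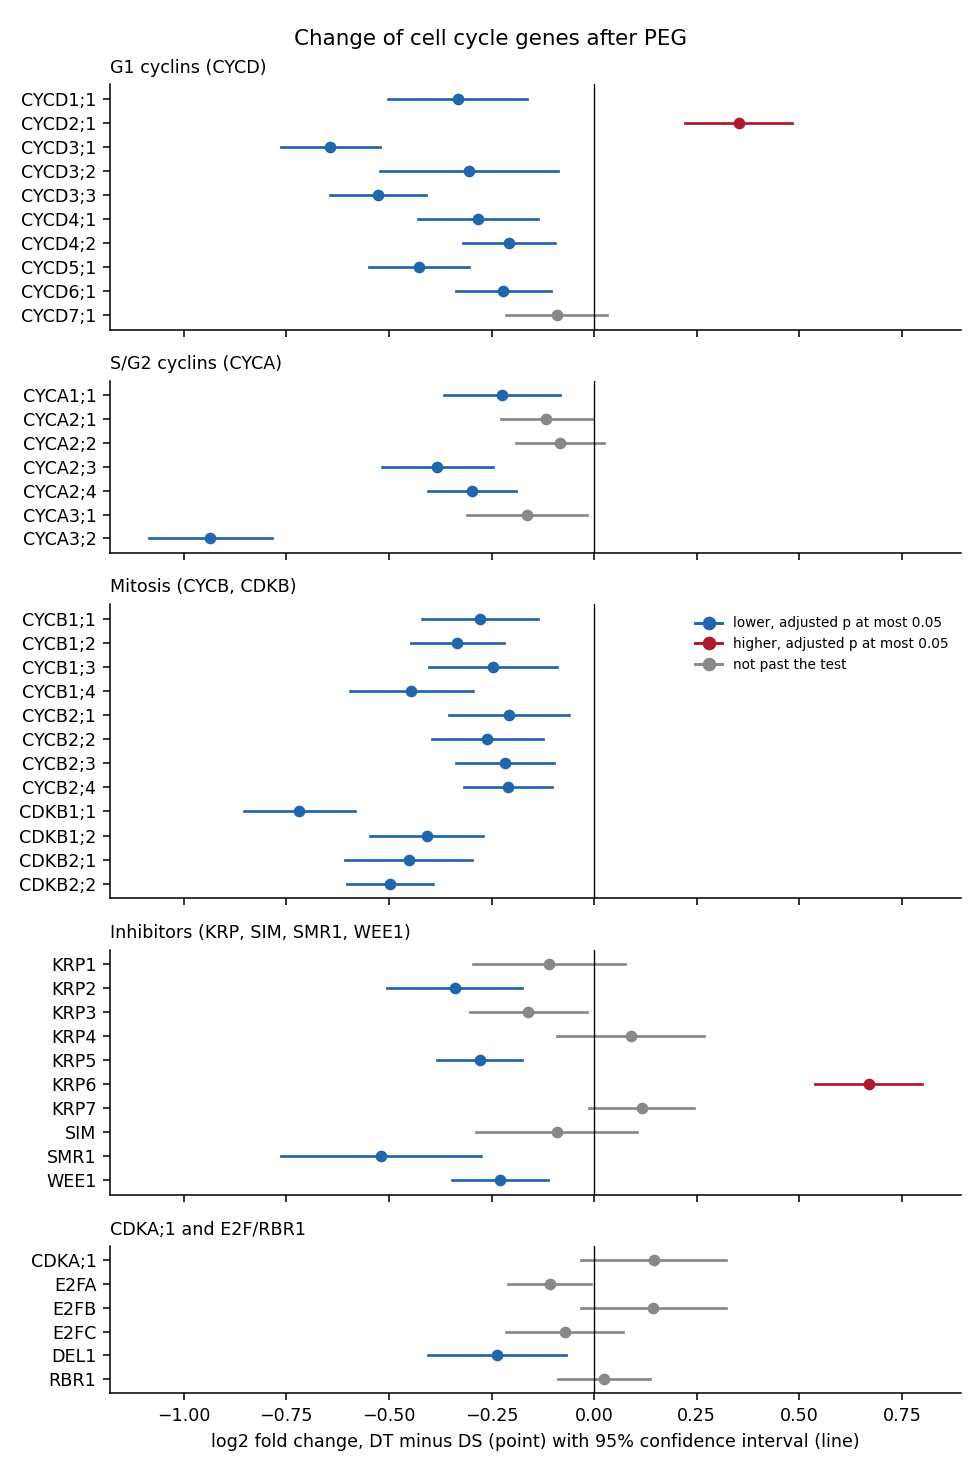
Log2 fold change (DT minus DS) of the 45 cell cycle genes with its 95% confidence interval from limma, in 5 panels by role, with genes that passed the test lower in DT in blue, higher in red and the others in grey (CDKA1 is labelled CDKA;1). All 12 CYCB and CDKB genes are blue, and the only red points are a D-type cyclin at 0.35 and KRP6 at 0.67.

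Arrays of the same group correlated at r of 0.972 to 0.977 (DS) and 0.958 to 0.975 (DT) over all genes, and arrays of different groups at 0.798 to 0.819. Also read were 3 desiccation-tolerance genes of the seed, which all rose in DT. The study had named these genes from the same arrays, so their rise is no independent check of the labels. RAB18, a dehydrin gene, rose by 3.84 on the log2 scale, and the late embryogenesis abundant genes EM1 and GEA6 by 3.00 and 3.01. DS replicate 3 was the highest DS array for 30 of the 45 members, against 45.2% of all genes. Without it 24 members were lower and 2 higher. Without DS replicate 2, the array whose removal took most calls, 23 were lower and 2 higher.

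Of the 10 D-type cyclins, which drive G1, 8 fell in DT (80.0%, against 19.9% of all genes). In this class 1 rose (10.0%, against 9.97% of all genes) and 1 did not pass. Their median log2 fold change was -0.29. The CYCD3 genes, which keep cells dividing in young shoot organs and respond to cytokinin, all fell. CYCD3;1 (AT4G34160, chromosome 4, 16357421 to 16359565) had log2 signals of 5.27, 5.26 and 5.40 in DS and 4.66, 4.68 and 4.67 in DT. Its DS values were all above the background level and its DT values all below it. The DT values lay within a span far narrower than the distance to the lowest DS array. The log2 fold change was -0.64 ± 0.05 (SE, n = 3 per group), or 1.56-fold lower (limma adjusted p = 5.86e-05). The gene overlaps AT4G34150 on the same strand by 40 bases, and that neighbour gave a log2 fold change of -0.46 (limma adjusted p = 0.000952). CYCD3;3 (AT3G50070, chromosome 3, 18565134 to 18566834) gave 5.60, 5.53 and 5.59 in DS and 5.05, 5.10 and 4.98 in DT. Again every DT array was below every DS array, with a log2 fold change of -0.53 ± 0.05 (SE, n = 3 per group, limma adjusted p = 0.00014).

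The third gene of this subfamily, CYCD3;2 (AT5G67260, chromosome 5, 26836139 to 26839597), had the highest mean signal of the D-type cyclins. Its log2 signals were 5.79, 5.92 and 6.10 in DS and 5.49, 5.74 and 5.66 in DT. The groups did not overlap, but the highest DT array and the lowest DS array lay close together, and the log2 fold change was -0.30 ± 0.09 (SE, n = 3 per group, limma adjusted p = 0.0419). This call was lost when any one of DS replicate 2, DS replicate 3, DT replicate 1 or DT replicate 3 was left out, with limma adjusted p = 0.0923, 0.121, 0.109 and 0.079.

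CYCD5;1 (AT4G37630, chromosome 4, 17679168 to 17681264), a cyclin gene linked to the extent of endoreduplication, measured 5.18, 5.12 and 5.25 in DS and 4.72, 4.74 and 4.81 in DT on the log2 scale. The groups were well separated, with all DS arrays above the background level and all DT arrays below it. The log2 fold change was -0.43 ± 0.05 (SE, n = 3 per group, limma adjusted p = 0.00052). The smaller log2 fold changes past the test were those of CYCD1;1 (AT1G70210, -0.33), CYCD4;1 (AT5G65420, -0.28), CYCD6;1 (AT4G03270, -0.22) and CYCD4;2 (AT5G10440, -0.21). AT5G65420, AT4G03270 and AT5G10440 had group means below the background level in both DS and DT. AT1G70210 had means of 5.17 in DS, above that level, and 4.84 in DT, below it. The calls of AT1G70210 and AT5G65420 were lost without variance moderation (linear model adjusted p = 0.0624 and 0.0548). AT4G03270 overlaps AT4G03260 on the opposite strand by 847 bases, and that neighbour gave a log2 fold change of -0.03 (limma adjusted p = 0.703). AT4G03270 acts in formative divisions of the root ground tissue under the regulators SHR and SCR. SHR fell by 0.25 on the log2 scale (limma adjusted p = 0.0118), and SCR gave a log2 fold change of -0.18 (limma adjusted p = 0.0695). CYCD7;1 (AT5G02110), known for the division of guard mother cells, gave a log2 fold change of -0.09 with a 95% confidence interval of -0.21 to 0.03 and was dim in both groups.

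A single D-type cyclin rose. CYCD2;1 (AT2G22490, chromosome 2, 9553797 to 9556167), whose expression responds to sucrose, had log2 signals of 5.20, 5.07 and 5.23 in DS and 5.50, 5.49 and 5.56 in DT. Every DT array was above every DS array, all 6 values were above the background level, and the log2 fold change was 0.35 ± 0.06 (SE, n = 3 per group), or 1.28-fold higher (limma adjusted p = 0.00198). The call was kept under every alternative fit and with any 1 array left out. Its promoter window held no MSA core, no E2F site and no abscisic acid response element (ABRE).

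**Figure D3:**
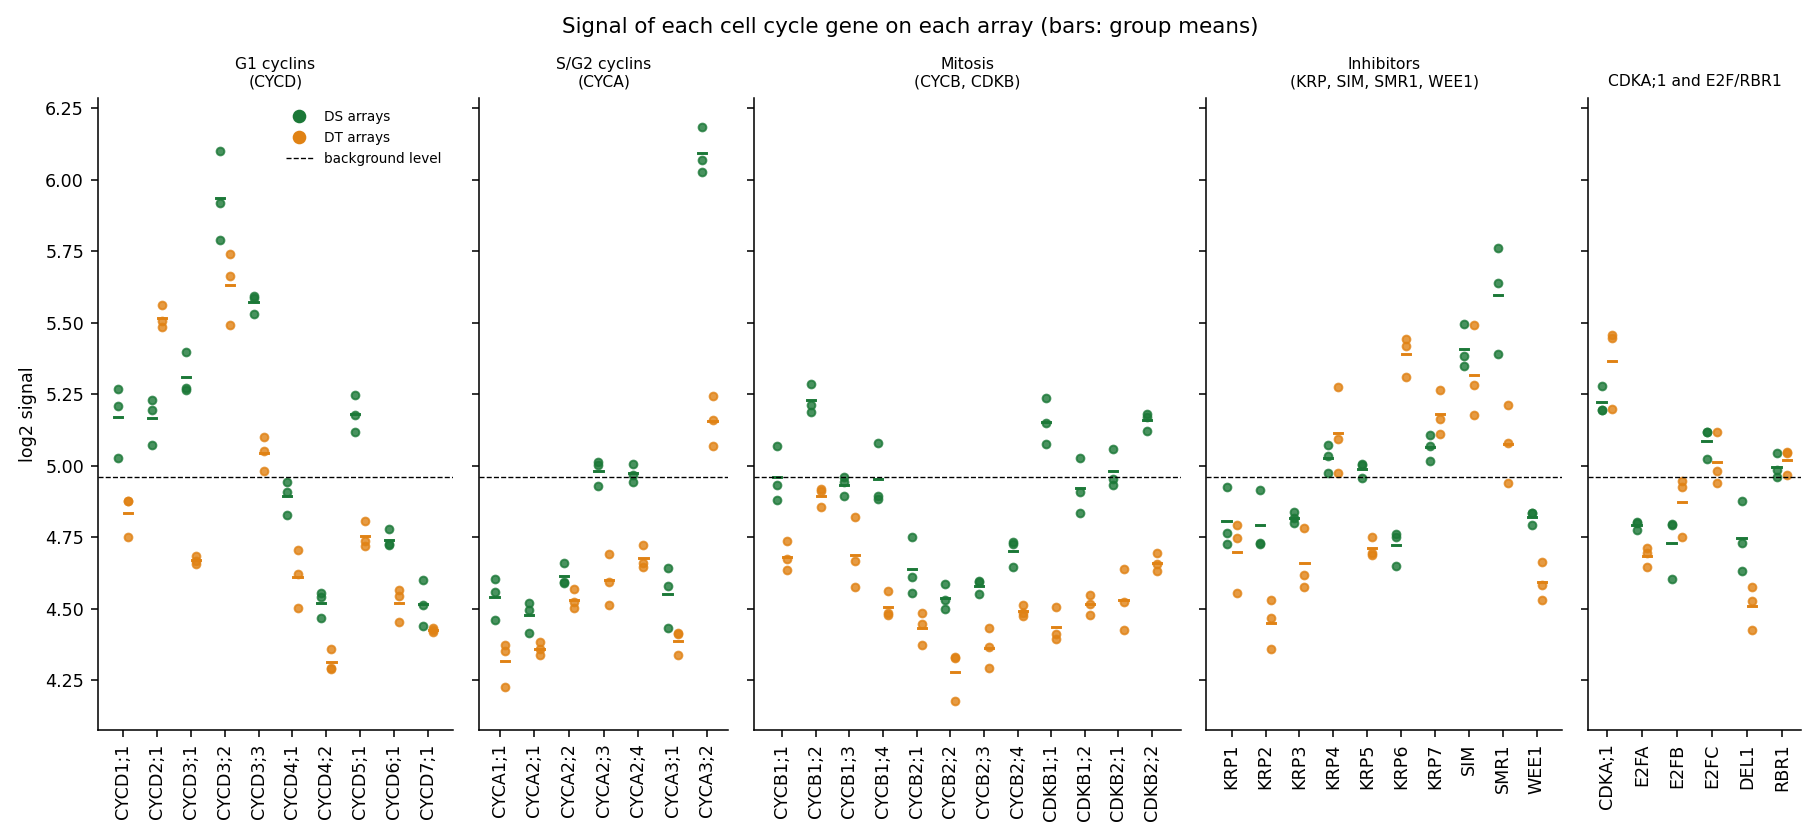
Log2 signal of each of the 45 genes on each of the 3 DS arrays (green) and 3 DT arrays (orange), with a short bar at each group mean and a dashed line at the background level of 4.96. Heights are to be read within a gene, since probes differ between genes. The orange points lie below the green ones for every CYCB and CDKB gene and above them for KRP6, KRP7 and 1 D-type cyclin.

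All 7 A-type cyclins had lower estimates in DT, as did 17010 of all 30509 genes. For all 7 the DT arrays lay wholly below the DS arrays, against 27.0% of all genes. Of the 7, 4 passed the test (57.1%, against 19.9% of all genes). The median log2 fold change of the 7 was -0.22. CYCA3;2 (AT1G47210, chromosome 1, 17300691 to 17302914), a cyclin of S phase, had the lowest fold change of the 45 genes. Its log2 signals were 6.03, 6.07 and 6.19 in DS and 5.07, 5.16 and 5.24 in DT. It was the only A-type cyclin with a mean above the background level, and it stayed above that level in DT. The log2 fold change was -0.94 ± 0.06 (SE, n = 3 per group), or 1.91-fold lower, with a 95% confidence interval of -1.09 to -0.79 (limma adjusted p = 2.68e-05).

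In the CYCA2 subfamily, whose members act with CDKB kinases and restrain endoreduplication, 2 of 4 genes fell. CYCA2;3 (AT1G15570, chromosome 1, 5361865 to 5365559) gave 4.93, 5.0 and 5.01 in DS and 4.51, 4.59 and 4.69 in DT on the log2 scale, a log2 fold change of -0.38 ± 0.06 (SE, n = 3 per group, limma adjusted p = 0.00157). CYCA2;4 (AT1G80370, chromosome 1, 30213705 to 30217102) gave 4.97, 4.94 and 5.01 in DS and 4.72, 4.65 and 4.66 in DT, a log2 fold change of -0.30 ± 0.05 (SE, n = 3 per group, limma adjusted p = 0.00172). For both genes the DS arrays lay around the background level and the DT arrays below it. CYCA2;1 (AT5G25380) and CYCA2;2 (AT5G11300) had log2 fold changes of -0.12 and -0.08 and did not pass.

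CYCA1;1 (AT1G44110, chromosome 1, 16774765 to 16777352), a cyclin of late S phase to mitosis, measured 4.46, 4.60 and 4.56 in DS and 4.23, 4.35 and 4.37 in DT on the log2 scale, below the background level throughout. Its log2 fold change was -0.22 ± 0.06 (SE, n = 3 per group, limma adjusted p = 0.0257). Leaving out DS replicate 2, DS replicate 3 or DT replicate 1 took the limma adjusted p to 0.0945, 0.0792 and 0.0605. CYCA3;1 (AT5G43080), of the same subfamily as AT1G47210, had a log2 fold change of -0.16 and did not pass (limma adjusted p = 0.096), but passed without DS replicate 1 (limma adjusted p = 0.0262).

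All 12 CYCB and CDKB genes fell in DT, against 19.9% of all genes. None of the 12 overlapped between groups, and 27.0% of all genes likewise lay wholly lower in DT. The log2 fold changes of the 12 ran from -0.72 to -0.21 with a median of -0.31. By subfamily the median log2 fold change was -0.48 for the 4 CDKB genes, -0.31 for the 4 CYCB1 genes and -0.21 for the 4 CYCB2 genes. The median log2 signal of the 12 genes was 4.88 to 5.04 in DS and 4.48 to 4.53 in DT. These genes were dim. The DS mean was above the background level for 4 of the 12 and the DT mean for 0. With any 1 array left out 9 to 12 of the 12 still fell. The lowest count came without DS replicate 2.

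The CDKB kinases are made only in plants and their transcripts peak at G2 and mitosis. CDKB1;1 (AT3G54180, chromosome 3, 20059671 to 20061488), which also acts in stomatal divisions, had log2 signals of 5.08, 5.15 and 5.23 in DS and 4.51, 4.41 and 4.39 in DT. It moved from above the background level on all DS arrays to below it on all DT arrays, a log2 fold change of -0.72 ± 0.06 (SE, n = 3 per group) or 1.65-fold lower (limma adjusted p = 5.98e-05). CDKB2;2 (AT1G20930, chromosome 1, 7292389 to 7294746) gave 5.12, 5.18 and 5.17 in DS and 4.63, 4.70 and 4.66 in DT, a log2 fold change of -0.50 ± 0.04 (SE, n = 3 per group, limma adjusted p = 0.000104). CDKB2;1 (AT1G76540, chromosome 1, 28720328 to 28722550) gave 4.93, 4.96 and 5.06 in DS and 4.64, 4.42 and 4.52 in DT, a log2 fold change of -0.45 ± 0.07 (SE, n = 3 per group, limma adjusted p = 0.00135). The CDKB2 pair is needed for the organisation of the shoot meristem. CDKB1;2 (AT2G38620) fell by 0.41 on the log2 scale (limma adjusted p = 0.00123).

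In the TAIR10.1 annotation 15 of the 45 members are overlapped by another gene, 14 of them on the opposite strand. Each of the 4 CDKB genes overlaps a neighbouring gene on the opposite strand by 44 to 281 bases. None of these 4 neighbours passed the test, and their log2 fold changes were -0.10 to 0.03. Transcripts of AT3G54180 and AT2G38620 share an identical run of 41 bases, and probes lying in that run would read both. In all, 7 of 990 pairs of members share an identical run of 25 or more bases. The other pairs are AT2G17620 with AT4G35620 (30 bases), AT1G76540 with AT1G20930, AT1G15570 with AT1G80370, and AT5G65420 with AT5G10440 (29 bases each), and AT5G43080 with AT1G47210, and AT1G20610 with AT1G76310 (26 bases each).

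Among the B-type cyclins, CYCB1;4 (AT2G26760, chromosome 2, 11401118 to 11403433) had the lowest log2 fold change. Its log2 signals were 4.88, 4.90 and 5.08 in DS and 4.48, 4.56 and 4.48 in DT. The groups were apart, and the log2 fold change was -0.45 ± 0.06 (SE, n = 3 per group, limma adjusted p = 0.00119). It is the CYCB gene whose promoter window holds no MSA core. CYCB1;2 (AT5G06150, chromosome 5, 1859279 to 1861703), the gene with 4 extended MSA words in the window printed above, gave 5.21, 5.19 and 5.29 in DS and 4.92, 4.91 and 4.85 in DT. Among the 12 CYCB and CDKB genes this was the only one with a mean above the background level, and its log2 fold change was -0.33 ± 0.05 (SE, n = 3 per group, limma adjusted p = 0.00127).

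CYCB1;1 (AT4G37490), the cyclin used widely as a reporter of cells at G2 to mitosis, fell by 0.28 on the log2 scale (limma adjusted p = 0.00981), and CYCB1;3 (AT3G11520) by 0.25 (limma adjusted p = 0.0261). The CYCB2 genes had the smallest median change of the mitotic subfamilies. CYCB2;2 (AT4G35620), whose window is printed above, gave log2 signals of 4.53, 4.50 and 4.59 in DS and 4.33, 4.33 and 4.18 in DT. CYCB2;3 (AT1G20610), also printed above, gave 4.55, 4.60 and 4.59 in DS and 4.29, 4.43 and 4.36 in DT. In both genes the groups were separated by a narrow gap, and all 6 values lay below the background level. Their log2 fold changes were -0.26 and -0.22, beside -0.21 for both CYCB2;1 (AT2G17620) and CYCB2;4 (AT1G76310). The calls of AT3G11520 and AT2G17620 were the least secure of the class. Left-out arrays took the limma adjusted p of the first to 0.0525 to 0.0841, except DT replicate 1, and that of the second to 0.0836 to 0.131 without DS replicate 2, DS replicate 3, DT replicate 2 or DT replicate 3. Without DS replicate 2 the call of AT1G20610 was lost as well (limma adjusted p = 0.0522).

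Of the 10 inhibitors, 4 fell (40.0%, against 19.9% of all genes) and 1 rose (10.0%, against 9.97% of all genes). The other 5 did not pass. Estimates were lower for 7 of the 10, beside 17010 of all 30509 genes. As a class the inhibitors had a median of -0.13 (log2 fold change). KRP6 (AT3G19150, chromosome 3, 6616330 to 6617951), a CDK inhibitor that is removed by ubiquitin-dependent degradation to let the male germ cell divide, rose. Its log2 signals were 4.65, 4.75 and 4.76 in DS and 5.31, 5.42 and 5.44 in DT. It went from below the background level on all DS arrays to above it on all DT arrays, which is the reverse of the course of AT3G54180. The log2 fold change was 0.67 ± 0.06 (SE, n = 3 per group), or 1.59-fold higher, with a 95% confidence interval of 0.54 to 0.80 (limma adjusted p = 7.31e-05). KRP6 passed under every alternative fit, and its promoter window held no MSA core, E2F site or ABRE.

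SMR1 (AT3G10525, chromosome 3, 3281306 to 3282131), an inhibitor that starts endoreduplication in giant cells of the sepal, fell. It measured 5.39, 5.64 and 5.76 in DS and 4.94, 5.08 and 5.21 in DT on the log2 scale. The groups did not overlap, although the DS arrays of this gene were the most widely spread among the 45 members (SD 0.189), and the log2 fold change was -0.52 ± 0.11 (SE, n = 3 per group, limma adjusted p = 0.00662). Without variance moderation the call of SMR1 was lost (linear model adjusted p = 0.0668). SMR1 overlaps AT3G10527 on the opposite strand by 375 bases, and that neighbour has no value on the array. KRP2 (AT3G50630, chromosome 3, 18800306 to 18801595), which limits lateral root initiation, gave 4.73, 4.73 and 4.92 in DS and 4.53, 4.36 and 4.47 in DT, a log2 fold change of -0.34 ± 0.07 (SE, n = 3 per group, limma adjusted p = 0.00761). KRP5 (AT3G24810, chromosome 3, 9060836 to 9062003) gave 5.01, 5.0 and 4.96 in DS and 4.69, 4.75 and 4.69 in DT, a log2 fold change of -0.28 ± 0.04 (SE, n = 3 per group, limma adjusted p = 0.00208). KRP2 was below the background level on every array, and KRP5 lay around it in DS and below it in DT. Without variance moderation the call of KRP2 was lost (linear model adjusted p = 0.0532). WEE1 (AT1G02970), the kinase that holds CDKs inactive when DNA replication is disturbed, fell by 0.23 on the log2 scale (limma adjusted p = 0.00993).

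SIM (AT5G04470, chromosome 5, 1266625 to 1267416), which stops division in developing trichomes, had log2 signals of 5.49, 5.35 and 5.38 in DS and 5.18, 5.28 and 5.49 in DT. The groups overlapped, and the log2 fold change of -0.09 had a 95% confidence interval of -0.29 to 0.10 (limma adjusted p = 0.501). KRP1 (-0.11), KRP3 (-0.16), KRP4 (0.09) and KRP7 (0.12) did not pass either, as log2 fold changes. KRP7 was the third member with all DT arrays above all DS arrays, at 5.07, 5.11 and 5.02 in DS and 5.11, 5.16 and 5.26 in DT on the log2 scale (limma adjusted p = 0.174). It passed when the arrays were quantile normalized once more (limma adjusted p = 0.0242). KRP3 passed without DT replicate 1 (limma adjusted p = 0.0118). KRP4 overlaps AT2G32720 on the opposite strand by 926 bases, and that neighbour gave a log2 fold change of -0.98 (limma adjusted p = 4.33e-05). Whether the signals kept the strands apart is not given in the sources used here.

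The kinase and factors that act in G1 and at the entry into S phase had the smallest median change among the 5 classes. Of CDKA1, RBR1, the 3 E2F genes and DEL1, 1 fell (16.7%, against 19.9% of all genes), 0 rose and 5 did not pass. The median log2 fold change was -0.02. Without adjustment for multiple testing (limma p at most 0.05) 2 were lower and 0 higher, a threshold at which the share of all genes was not counted. CDKA1 (AT3G48750, chromosome 3, 18071454 to 18074641), the kinase partner of D- and A-type cyclins, had log2 signals of 5.19, 5.20 and 5.28 in DS and 5.20, 5.45 and 5.46 in DT. Its level on DT replicate 1 was that of the DS arrays, and the other two DT arrays were higher. The log2 fold change was 0.14 ± 0.08 (SE, n = 3 per group), with a 95% confidence interval of -0.03 to 0.32 (limma adjusted p = 0.216). Without DT replicate 1 it passed as higher (limma adjusted p = 0.014).

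RBR1 (AT3G12280), the repressor that D-type cyclins relieve, measured 4.96, 4.98 and 5.04 in DS and 4.97, 5.05 and 5.04 in DT on the log2 scale. The groups overlapped closely, and the 95% confidence interval of the log2 fold change, -0.09 to 0.14, holds changes of either sign. The activators E2FA (AT2G36010) and E2FB (AT5G22220) gave log2 fold changes of -0.11 and 0.14, and the repressor E2FC (AT1G47870) gave -0.07. DEL1 (AT3G48160, chromosome 3, 17783331 to 17786160), an atypical E2F that delays the onset of endoreduplication, was the gene of this class that fell. It gave 4.63, 4.88 and 4.73 in DS and 4.58, 4.43 and 4.53 in DT on the log2 scale, all below the background level, with a log2 fold change of -0.24 ± 0.07 (SE, n = 3 per group, limma adjusted p = 0.0424). That call was lost without DS replicate 2, DS replicate 3, DT replicate 2 or DT replicate 3, at limma adjusted p = 0.127, 0.0946, 0.133 and 0.0841. DEL1 overlaps AT3G48170 on the opposite strand by 307 bases, a neighbour with a log2 fold change of 0.24 (limma adjusted p = 0.0326).

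E2F sites, searched as TTTCCCGC, TTTCGCGC, TTTGCCGC and TTTGGCGC, stood in the promoter windows of 2 of the 45 members, AT3G50070 and RBR1, and in 2.08% of all windows. ABRE words, ACGTGGC and ACGTGTC, stood in 6 of the 45 windows (13.3%) and in 6.65% of all windows. The 6 genes with an ABRE word were AT5G67260, AT1G44110, AT1G20610, AT1G76540, KRP1 and KRP2, of which 5 fell and KRP1 did not pass.

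The rest of the cell cycle machinery was read from 47 further genes. Of these 21 fell (44.7%, against 19.9% of all genes), 2 rose (4.26%, against 9.97% of all genes) and 24 did not pass. These 47 genes had a median log2 fold change of -0.17. By class, 6 of 8 genes of mitosis and cytokinesis fell, 4 of 7 regulators of the anaphase-promoting complex (APC/C), 3 of 3 replication licensing genes, 3 of 9 remaining CDK and CDK subunit genes, 2 of 6 remaining inhibitors, 2 of 8 transcription factors and 1 of 6 remaining cyclins.

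The CKS genes encode the small subunit that docks CDKs to their substrates. CKS2 (AT2G27970) had log2 signals of 5.46, 5.45 and 5.53 in DS and 4.59, 4.67 and 4.46 in DT, and a log2 fold change of -0.90 ± 0.06 (SE, n = 3 per group, limma adjusted p = 2.91e-05). CKS1 (AT2G27960) gave 5.56, 5.45 and 5.58 in DS and 4.73, 4.80 and 4.76 in DT, and a log2 fold change of -0.77 ± 0.05 (SE, n = 3 per group, limma adjusted p = 2.59e-05). Both went from above to below the background level on every array, and their transcripts share an identical run of 20 bases. AUR1 (AT4G32830), an Aurora kinase of mitotic chromosomes, gave 5.24, 5.23 and 5.43 in DS and 4.58, 4.58 and 4.58 in DT. Its DS arrays were above the background level and its DT arrays below it. The log2 fold change of AUR1 was -0.72 ± 0.06 (SE, n = 3 per group, limma adjusted p = 8.58e-05). The next falls in mitosis and licensing were those of the cytokinesis syntaxin gene KNOLLE at -0.54, CDT1A at -0.47 and the centromeric histone gene CENH3 at -0.46 on the log2 scale.

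The 2 further genes that rose were an inhibitor and a kinase outside the cycle proper. SMR5 (AT1G07500), a CDK inhibitor induced by reactive oxygen and DNA damage, had log2 signals of 5.29, 5.41 and 5.45 in DS and 6.76, 6.14 and 6.13 in DT. All DT arrays were higher, with DT replicate 1 far above the others, and the log2 fold change was 0.96 ± 0.16 (SE, n = 3 per group), or 1.95-fold higher (limma adjusted p = 0.00247). It passed with any 1 array left out. CDKE;1 (AT5G63610), a kinase of the Mediator complex, gave 5.33, 5.34 and 5.45 in DS and 5.53, 5.63 and 5.65 in DT, and a log2 fold change of 0.23 ± 0.06 (SE, n = 3 per group, limma adjusted p = 0.0158). This call was lost without DS replicate 1, DS replicate 2, DT replicate 2 or DT replicate 3, at limma adjusted p = 0.0575, 0.0618, 0.0557 and 0.057. The MYB3R genes gave log2 fold changes of -0.12 (MYB3R1), 0.08 (MYB3R3), -0.11 (MYB3R4) and 0.07 (MYB3R5), none of which passed.

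**Figure D4:**
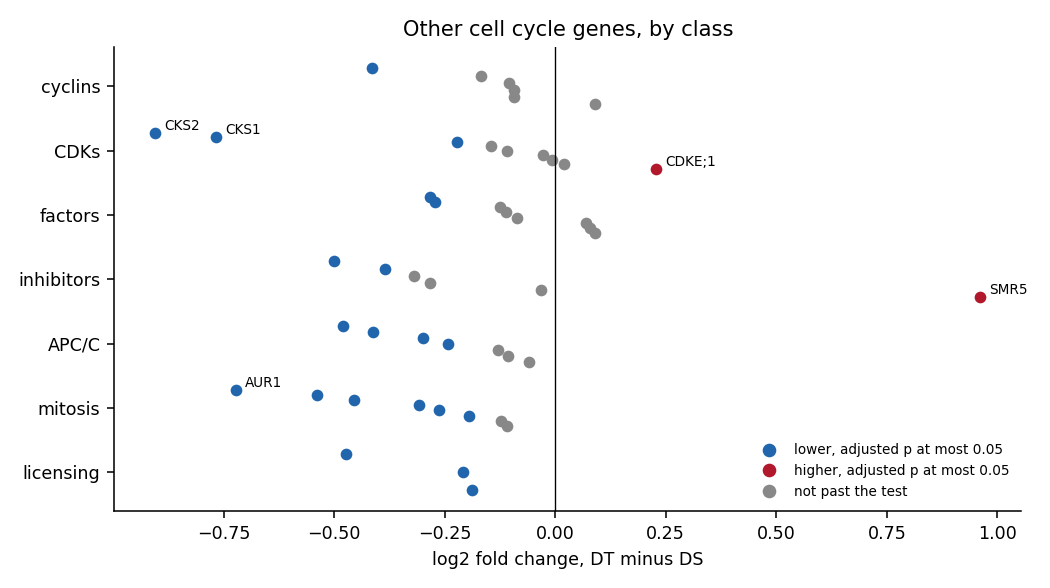
Log2 fold change (DT minus DS) of 47 cell cycle genes outside the 45, 1 point per gene in rows by class, with genes past the test lower in DT in blue, higher in red and the others in grey. CKS2 at -0.90, CKS1 at -0.77 and AUR1 at -0.72 lie farthest left, and SMR5 at 0.96 lies farthest right.

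Markers of seed tissues were read on the same arrays. Of 5 genes of the root meristem and radicle (PLT1, PLT2, WOX5, SHR and SCR) 1, SHR, fell (20%, against 19.9% of all genes), and their summed linear signal was 153.6 to 155.3 in DS and 137.1 to 144.2 in DT. Of 4 endosperm genes (EPR1, MAN7, NAC25 and EXPA2) 2 rose, against 9.97% of all genes, MAN7 by 1.21 and EXPA2 by 0.54 on the log2 scale, and the sum was 237.0 to 282.7 in DS and 325.3 to 430.0 in DT. Of 3 root hair genes (RHD6, EXPA7 and COBL9) 1, RHD6, fell, with sums of 83.5 to 93.5 in DS and 80.1 to 83.3 in DT. The 3 shoot meristem genes STM, WUS and CLV3 did not pass, with sums of 66.2 to 72.0 in DS and 68.6 to 70.8 in DT. The group means of PLT1, PLT2, WOX5, NAC25, EXPA7, COBL9, STM, WUS and CLV3 were below the background level in both DS and DT. The part of tissue composition in the falls of the cell cycle genes was not tested.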

How the data were processed

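The authors extracted hybridization signals of SNPtile arrays with a TAIR9-based annotation, quantile normalized them and deposited 1 value per gene, taken here as log2 from its range. Background treatment and the summarisation of probes are not given in the sources used here. A normalized signal near the floor understates a change, and precision is limited by having 6 arrays.

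DT was compared with DS over all 30509 genes by the moderated two-sided test of limma (version 3.58.1 under R 4.3.3, functions lmFit and eBayes) without covariates, which estimated 3.71 prior degrees of freedom, with Benjamini-Hochberg adjustment. Counts and promoter searches used Python 3.11.15. Of the loci, 30078 matched RefSeq TAIR10.1 and 431 did not. Protein sequences were not used here.

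Per-array values are given for up to 4 members past the test with the largest change in each class, the brightest of each class and any that passed against its class. Values of KRP7, RBR1 and the CYCB genes with printed promoters were added after they were seen. Of the other genes the 3 largest rises and falls past the test are named, and KNOLLE, CDT1A, CENH3 and the MYB3R genes were added after their values were seen. The members and gene lists were chosen with earlier results of these data known. Alternatives were an intensity trend, no variance moderation, array weights, centring, repeated quantile normalization, a filter on dim genes, the replicate block, no adjustment, and each array left out.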

Additional observations from a re-analysis of the deposited data

How the results depend on the processing

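Of the 31 members past the test, 21 passed with the same sign under every alternative other than the filter on dim genes. That filter kept 10641 genes and 16 members, so its counts are smaller by construction. Of the 10641 genes kept, 4371 were lower and 2498 higher, larger shares than the 19.9% and 9.97% over all genes. Of the 16 members, 8 were lower and 2 higher. The 8 were 5 CYCD, 1 CYCA, 1 of CYCB and CDKB, 1 inhibitor and 0 of CDKA1 and the E2F and RBR1 genes. Of the other cell cycle genes 11 were lower. The class medians (log2 fold change) among members so kept were -0.38 for 6 CYCD genes and, reversed, 0.089 for 5 inhibitors. Only 1 CYCA gene was kept, CYCA3;2, so the CYCA value of -0.94 is that of a single gene. For the remaining changes the cause was not tested. Repeated quantile normalization gave 4 members higher (2 of them inhibitors, 1 in the CDKA1 class) and 0 lower in the CDKA1 class, medians of -0.22 for CYCD and -0.093 for inhibitors, and reversed the CDKA1 class median to 0.051, SIM to 0.0003 and E2FC to 0.0048. Centring gave 0 lower in the CDKA1 class and medians of -0.18 for CYCA and -0.092 for inhibitors. Of all calls 33.3% were higher in DT, against 43.7% with centring and 47.2% with repeated quantile normalization. Without variance moderation 21 members were lower, of which 5 CYCD and 2 inhibitors. Array weights gave 1 gene of the CDKA1 class higher, and no adjustment gave 2 lower. A log2 fold change of at least 0.5 in place of 1 gave 5 members lower and 1 higher. With arrays left out in turn, members lower ranged from 23 to 29, the CDKA1 class from 0 to 1 lower and 0 to 1 higher, the other cell cycle genes from 1 to 2 higher, and the CYCA median from -0.26 to -0.18. The labels do not say whether same-numbered arrays were prepared as pairs. The deviations of same-numbered arrays from their group means correlated at 0.0612, -0.0103 and 0.104. These values cannot show how the samples were prepared. With the replicate number as a block 27 members were lower and 2 higher, and 0 of the CDKA1 class lower. CYCB2;1 (limma adjusted p = 0.0555) and DEL1 (0.0893) lost their calls, and the block changed no other call of a member. Signals near background limit what can be read from the dim genes.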
